A study of Mus musculus with 21 samples.

Results

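The experiment described here asked what loss of PDS5A did to the transcriptome of mouse embryonic stem cells (mESCs) in which PDS5B had been knocked down. Pds5a-/- siPds5b mESCs were set against WT siPds5b mESCs, so the same siRNA was on both sides and the labels differed only in genotype. The members were taken from the sample labels and comprised 6 of the 21 RNA-seq libraries of the series, 3 for each genotype. All 6 came from the male v6.5 mESC line, grown on gelatin, transfected with 50 nM of siRNA against Pds5b and collected 48 h later. The other 15 libraries were WT siGLO, Pds5a-/- siGLO, Pds5b-/- siGLO, Pds5a-/- siStag1 and Pds5a-/- siStag2 mESCs, 3 of each, where siGLO is a transfection control. The Pds5a-/- cells were 1 CRISPR clone, of which 1 allele carries an insertion together with a deletion in exon 2 and the other a larger deletion that reaches into the next intron. A difference between genotypes therefore could not be told apart from a difference between this clone and the WT culture. The study's text calls replicates of this kind biological without saying how they were separated, and p-values measure the spread between these libraries of 1 clone and 1 WT line.

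Cohesin is a ring of SMC1A, SMC3 and RAD21 that holds sister chromatids together and extrudes chromatin loops. PDS5A and PDS5B are paralogous HEAT-repeat proteins that bind RAD21, help WAPL release cohesin from chromatin and help ESCO1 acetylate SMC3, which stabilizes cohesin. Embryonic stem cells are kept in the naive state by transcription factors such as NANOG, ESRRB, KLF4, TFCP2L1 and PRDM14, and many of their key genes lie in chromatin loops anchored by cohesin and CTCF.

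The Pds5a-/- line was made with a pair of guide RNAs, which are shown because they define the genotype contrast. Both were found by exact match in mm10 on the plus strand of chromosome 5, the first at chr5:65696769-65696788 and the other at chr5:65696843-65696862. They lie in coding sequence of exon 2 of Pds5a, a gene on the minus strand at chr5:65605721-65698273. Each guide is printed 5′ to 3′ in lower case, followed in capitals by the PAM that Cas9 needs, read from the genome.
Pds5a sgRNA 1: acgtttgatcatttcatcggTGG
Pds5a sgRNA 2: ccgcactcacgacgccacagAGG

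Total counts per library ranged from 17434084 to 19628146 in WT siPds5b mESCs and from 18752413 to 22026367 in Pds5a-/- siPds5b mESCs, and between 16892 and 17639 genes had a count. Values are given as normalized counts, that is counts scaled to a common library size of 19816922 after TMM normalization. Stem cell markers were abundant in all 6 libraries, with Pou5f1 at 17768 to 31322 and Dppa5a at 26716 to 37256 normalized counts. Pds5a-/- siPds5b replicate 1 stood apart from its other two replicates for keratin and actin genes, and these genes are given with each library's value. Fibroblast markers, which would mark feeder cells, summed to 3699 to 7188 normalized counts in Pds5a-/- siPds5b and 4355 to 5346 in WT siPds5b mESCs. Of 15 tested fibroblast markers 7 were higher (46.7%, against 16.3% of all tested genes) and 1 was lower. None of the 19 listed was at 0 in all libraries of a group, and their part in the results below was not tested.

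Pds5a, the targeted gene, was still transcribed in the knockout line. Its normalized counts were 4917, 4674 and 5674 in WT siPds5b and 4082, 3806 and 3522 in Pds5a-/- siPds5b mESCs. The groups did not overlap, and the level fell 1.34-fold (log2 fold change −0.42 ± 0.09, SE, edgeR adjusted p = 0.000545). Small edits in 1 exon need not remove the mRNA, so this level does not check the genotype label. With siGLO the same contrast gave −0.24 (adjusted p = 0.0415), above the threshold of 0.01 used throughout.

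Pds5b, the target of the siRNA (chr5:150673739-150810690), was low on both sides of the comparison. It had 687, 839 and 802 normalized counts in WT siPds5b and 1073, 901 and 736 in Pds5a-/- siPds5b mESCs, against 2019 to 2354 in WT siGLO and 2074 to 2614 in Pds5a-/- siGLO mESCs. The genotypes overlapped under siPds5b (log2 fold change 0.22 ± 0.12, adjusted p = 0.124), so a difference in residual Pds5b mRNA was not detected, and some Pds5b mRNA remained in all 6 libraries.

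Of the 11 genes for PDS5, ring and STAG subunits, 1 was higher (9.09%) and 3 were lower (27.3%), against 16.3% higher and 14.3% lower among all tested genes. Of 12 loading, release and boundary factors none was higher and 3 were lower (25%). Pttg1, which encodes securin, the inhibitor of separase, fell from 1559, 1663 and 1429 to 745, 743 and 741 normalized counts (−1.06 ± 0.12, adjusted p = 2.7e-07). Rad21, the kleisin of the ring, fell by 0.20 on the log2 scale (adjusted p = 0.00886) and Stag3, a meiotic STAG subunit, by 0.57 (adjusted p = 0.00605). Esco2, an SMC3 acetyltransferase, fell by 0.33 (adjusted p = 0.00604) and Sgol1, the shugoshin that protects centromeric cohesin, by 0.30 (adjusted p = 0.00368). Rad21l, a meiotic kleisin, rose from 4.08, 1.12 and 5.74 to 13.3, 27.99 and 9.97 normalized counts (adjusted p = 0.00449). These calls were of different weight, since those of Rad21, Stag3, Esco2, Sgol1 and Rad21l were each lost when at least 1 single library was left out, whereas those of Pds5a and Pttg1 were kept.

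A large share of the transcriptome differed between the Pds5a-/- clone and WT mESCs with PDS5B knocked down. Of 14963 tested genes 4586 passed (30.6%), 2445 higher in Pds5a-/- siPds5b mESCs (16.3%) and 2141 lower (14.3%). These shares are the background for each gene list below. A change of at least 1 on the log2 scale was more common upward, in 1157 higher against 498 lower genes. The 3 libraries of a genotype lay wholly above the other 3 for 4024 genes and wholly below for 3967, and 4560 of the called genes were among them. The count without any 1 library ranged from 3581 to 4365.

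The steepest fall among genes whose mean log2 CPM was 1 or more was that of Klhl4, a kelch-repeat gene on the X chromosome (chrX:114474333-114560829). It went from 292, 413 and 383 normalized counts in WT siPds5b to 5.33, 0 and 1.00 in Pds5a-/- siPds5b mESCs (adjusted p = 6.52e-12), and it had no count in any Pds5a-/- siGLO library. Mest, an imprinted gene that encodes a hydrolase-like protein (chr6:30723547-30748465), fell from 1894, 1747 and 1942 to 153, 138 and 108 normalized counts, which was 13.97-fold (−3.80 ± 0.11, adjusted p = 9.95e-18). Both genes were low in the clone with either siRNA, as Mest had 147, 158 and 150 normalized counts in Pds5a-/- siGLO mESCs. Scn3a, a sodium channel subunit, fell from 138, 119 and 163 to 4.44, 5.18 and 5.98 normalized counts (26.4-fold, adjusted p = 7e-11). Inhbb, the activin B subunit, fell from 1260, 699 and 770 to 53.3, 61.2 and 43.9 (17.2-fold, adjusted p = 2.59e-09). The homeobox gene Nkx6-3, Arl14epl, Accsl and the RAS-family gene Mras also fell, 19.6-, 18.5-, 11.9- and 10.0-fold. All of these genes were chosen from those without overlap between the genotypes, which 99.4% of the called genes met.

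Among the largest increases of genes whose mean log2 CPM was 1 or more, Gbp7, an interferon-inducible GTPase, went from 15.3, 11.2 and 14.9 to 246, 288 and 345 normalized counts (21.01-fold, adjusted p = 2.16e-10). The matrix metalloproteinase gene Mmp9 rose from 69.3, 45.8 and 42.5 to 394, 667 and 647 (10.7-fold, adjusted p = 2.74e-11). The keratin gene Krt20 (14.9-fold), the IGF-binding protein gene Igfbp6 (13.8-fold) and the glycosyltransferase gene Galnt14 (20.1-fold) were also among the 12 largest increases of genes at that level without overlap. A further 9 genes had at most 3 counts in every WT siPds5b library and at least 20 normalized counts in every Pds5a-/- siPds5b library, and 2 genes showed the reverse. Rassf9 was at 1.02, 3.35 and 1.15 against 65.7, 51.8 and 39.9 normalized counts, and the stathmin gene Stmn4 at 3.06, 0 and 1.15 against 38.2, 56.0 and 40.9. Gpr37, an orphan receptor gene, went the other way, from 29.6, 55.8 and 56.3 to 1.78, 1.04 and 1.99, as did the imprinted noncoding RNA Peg13, from 35.7, 30.1 and 27.6 to 2.66, 3.11 and 1.00.

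The naive pluripotency network fell together. Of its 18 genes 14 were lower (77.8%, against 14.3% of all tested genes) and 1 was higher, and the median log2 fold change was −1.54, against −0.0024 for all tested genes. Prdm14, which represses primed-state genes and DNA methylation, fell most, from 505, 580 and 551 to 62.2, 82.9 and 85.7 normalized counts (7.11-fold, −2.83 ± 0.18, adjusted p = 2.5e-11). Esrrb, an orphan nuclear receptor gene of the core network, fell from 9717, 9643 and 9077 to 2245, 2104 and 2282 (4.29-fold, −2.10 ± 0.08, adjusted p = 1.22e-15). Within each genotype the Esrrb replicates were close together, and the groups lay far apart. Klf4 went from 3065, 2959 and 2649 to 573, 657 and 617 normalized counts (−2.23 ± 0.08, adjusted p = 3.72e-16). In a bulk culture, fewer cells with a transcript and less of it in each cell cannot be told apart.

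The other members of the naive network fell by graded amounts. Tbx3, a T-box factor, fell by 2.32 on the log2 scale, the AKT cofactor gene Tcl1 by 2.19, the nuclear receptor genes Nr0b1 and Nr5a2 by 2.09 and 1.94, and the LIF-responsive factor gene Tfcp2l1 by 2.01. Nanog went from 8698, 9701 and 9932 to 2602, 3594 and 3515 normalized counts (2.92-fold, adjusted p = 1.22e-08) and Zfp42, also known as Rex1, fell 2.89-fold. The methylcytosine dioxygenase gene Tet2 fell by 1.39 and the Kruppel-like factor genes Klf5 and Klf2 by 0.98 each. Fgf4 was the smallest of the falls (−0.40, adjusted p = 0.00306), and its call was lost without Pds5a-/- siPds5b replicate 2 or 3 or WT siPds5b replicate 1. The LIF-pathway genes Stat3 and Socs3 did not pass, at 0.04 ± 0.06 and 0.05 ± 0.08, nor did Sox15 (−0.36 ± 0.16).

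Dppa3, a maternal factor that protects against demethylation and is usually expressed with the naive genes, went the other way. It had 193, 247 and 195 normalized counts in WT siPds5b and 795, 1190 and 917 in Pds5a-/- siPds5b mESCs (4.57-fold, 2.19 ± 0.23, adjusted p = 1.08e-06). Every Pds5a-/- library was above every WT library. The plot of naive genes by library shows Dppa3 at the far right, on the opposite side from the rest.

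**Figure D1:**
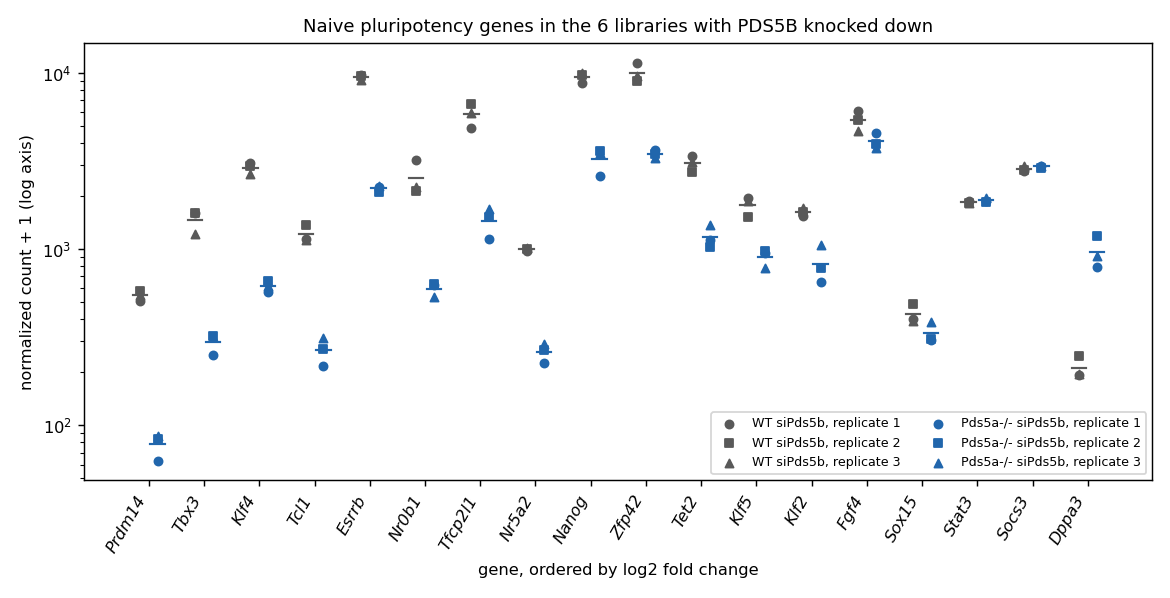
Normalized counts plus 1 (log axis) of the 18 naive pluripotency genes in the 6 siPds5b libraries, grey for WT and blue for Pds5a-/-, with a symbol for each replicate and a line at the mean of the 3; genes are ordered by log2 fold change. From Prdm14 to Fgf4 all Pds5a-/- points lie below all WT points, and Dppa3 is the gene with the reverse.

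General pluripotency factors fell less than the naive set. Of 16 such genes 5 were lower and 2 higher. Pou5f1, which encodes OCT4, fell by 0.66 ± 0.08 (adjusted p = 7.65e-07), and Sox2 by 0.80 ± 0.07, from 8453, 8336 and 7488 to 5006, 4355 and 4601 normalized counts (adjusted p = 6.7e-09). Epcam and Lin28a rose, by 0.61 and 0.44. Among the lineage markers that the study plotted, Nes, an intermediate filament gene of neural progenitors, fell by 1.26 (adjusted p = 6.28e-05), while Pax6 (0.79, adjusted p = 0.0427), Gata6 (−0.50, adjusted p = 0.4) and Sox17 (0.32, adjusted p = 0.654) did not pass. The Gata6 and Sox17 libraries of 1 genotype were spread over more than the difference between the genotypes.

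Genes of the formative state, which follows the naive state in the embryo, did not rise as a set. Of 16 tested, 4 were higher and 2 lower, near the background shares. Pou3f1, a POU factor of the formative epiblast, rose from 694, 875 and 872 to 2401, 1957 and 1514 normalized counts (1.27 ± 0.17, adjusted p = 1.34e-05), and Lef1 rose by 1.39. Otx2 was at 248, 424 and 425 against 589, 435 and 505 (0.49 ± 0.20, adjusted p = 0.059) and Fgf5 at 77.4, 221 and 216 against 104, 64.3 and 58.8 (−1.17 ± 0.39, adjusted p = 0.0204). Both are widely used formative markers, and neither passed.

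The genes for the de novo DNA methyltransferases rose. Of 12 tested DNA methylation genes 5 were higher and 4 lower. Dnmt3a went from 5043, 3143 and 3450 to 12316, 9257 and 8909 normalized counts (1.39 ± 0.25, adjusted p = 0.000374), Dnmt3b rose by 1.09 and their cofactor Dnmt3l by 1.52. Those 3 genes were above WT in every Pds5a-/- library. The lower members were Tet2, Zfp57, a zinc finger factor that guards methylation at imprints (−0.88), Trim28, the corepressor it recruits (−0.54), and Uhrf1, the maintenance cofactor (−0.33), whereas Dnmt1 (−0.15, adjusted p = 0.0887) and Tet1 (−0.38, adjusted p = 0.152) did not pass.

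Trophoblast and simple-epithelium genes rose. Of 14 tested trophoblast genes 10 were higher (71.4%, against 16.3% of all tested genes) and 2 were lower, with a median log2 fold change of 1.67. Krt8 and Krt18, the paired keratins of simple epithelia, went from 1831, 1674 and 1707 to 6596, 17193 and 17299 normalized counts (7.88-fold, adjusted p = 0.000165) and from 1200, 1156 and 1034 to 5532, 14521 and 15181 (10.4-fold, adjusted p = 4.91e-05). Krt7 rose 14.7-fold, from 84.6, 90.4 and 70.0 to 575, 1443 and 1589. For all these keratins Pds5a-/- siPds5b replicate 1 was the low library of its group, and it was still above every WT library. Hand1, a bHLH factor of giant cells, rose from 44.8, 23.4 and 22.96 to 248, 281 and 278 (8.71-fold, adjusted p = 3.33e-10), and Gata3 from 21.4, 17.9 and 24.1 to 59.5, 107 and 99.7 (4.16-fold).

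Other trophoblast genes did not follow. Eomes, a T-box factor of trophoblast stem cells that also marks the primitive streak, fell 2.31-fold (adjusted p = 0.00041) and Tead4 by 0.60 (adjusted p = 0.00105). Cdx2 was at 2.04, 12.3 and 32.1 against 45.3, 49.8 and 49.8 normalized counts, and its call (adjusted p = 0.00544) was lost in 4 of the 6 fits that each left out a library. The placental hormone and spongiotrophoblast markers Prl3d1, Prl2c2 and Tpbpa had no count in any of the 6 libraries, although the files also list genes that most cells use, such as Rpl26 and Tdg, at 0. Without WT siPds5b replicate 1 the number of higher trophoblast genes fell from 10 to 6.

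**Figure D2:**
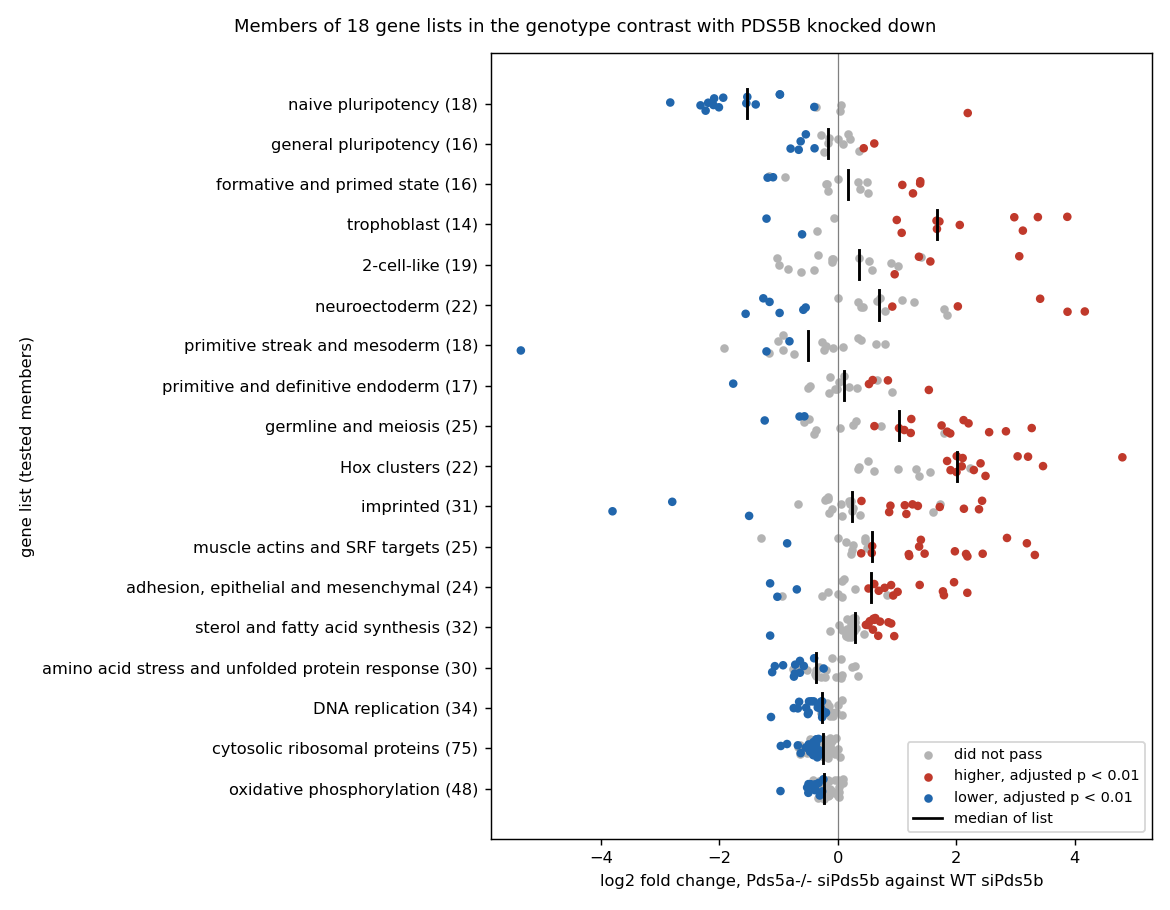
Log2 fold change of Pds5a-/- siPds5b against WT siPds5b for the tested members of 18 gene lists (1 point per gene, red for higher and blue for lower at adjusted p under 0.01, grey for not passing, the black bar is the median of the list). The naive pluripotency median lies at −1.54, those of the trophoblast and Hox lists at 1.67 and 2.00, and the ribosomal and DNA replication genes lie in a narrow band left of 0. The Hox median leaves out members that failed the filter on low counts, which Pds5a-/- libraries alone could meet, so it does not measure the whole list.

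Many actin and muscle-type cytoskeletal genes rose as well. In the list of muscle actins and targets of SRF, the serum response factor, 15 of 25 tested genes were higher and 1 was lower. That was 60% higher, against 16.3% of all tested genes, and the median was 0.58. Acta1, the skeletal muscle actin, went from 214, 136 and 137 to 641, 1803 and 2034 normalized counts (9.13-fold, adjusted p = 0.000215), again with replicate 1 the lowest of its group. Ctgf, a secreted matricellular protein gene, rose from 552, 439 and 509 to 3932, 3742 and 3182 (7.23-fold, 2.85 ± 0.10, adjusted p = 3.72e-16) with no such spread. The LIM-domain cofactor gene Fhl2 rose 10.0-fold, the calponin gene Cnn1 5.44-fold, Ankrd1 4.55-fold and the smooth muscle gene Tagln 4.48-fold. Srf itself rose by 0.58 (adjusted p = 3.15e-07), from 1261, 1333 and 1235 to 1918, 1991 and 1812. The immediate early gene Ier2 was the member called lower (−0.86), and the member with the lowest log2 fold change, −1.31, did not pass. The actin gene Acta2 (0.26), Tagln2 (0.13) and Zyx (0.24) did not pass either. With genes of chromosome 8 left out, 14 higher and no lower members remained and the median was 0.89.

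SRF binds a 10-base element called the CArG box, and the promoters of these genes were therefore searched for it on both strands. RefSeq promoters (GRCm38.p6, 250 bases before to 50 after each start) were found for 18 members of the list, and 7 of them held a CArG box, 38.9% against 1.81% of all 27025 genes with a promoter. The 7 were Acta1, Actc1, Cnn2, Myl9, Vcl, Srf and Fhl2, all among the 12 called members with a promoter, and none of the 6 members that were not called held a box. The list was chosen in part for known CArG genes, and a match in the letters is not a bound site. Only exact boxes within that window were sought, so members without a match may hold altered or more distant boxes. The split between called and uncalled members therefore does not show a role of SRF. For 5 of them the surrounding bases are shown 5′ to 3′ on the strand of the gene, with 1 box of each in capitals, to let the boxes be compared. Srf has a second box, in lower case within its stretch, and Fhl2 another that is not shown. They lie at chr8:123894799-123894888 (minus strand) for Acta1, chr10:79988504-79988593 (plus) for Cnn2, chr2:156775263-156775352 (plus) for Myl9, chr17:46556195-46556284 (minus) for Srf and chr1:43163962-43164032 (minus) for Fhl2.
Acta1: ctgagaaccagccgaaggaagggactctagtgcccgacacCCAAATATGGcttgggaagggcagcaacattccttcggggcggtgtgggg
Cnn2: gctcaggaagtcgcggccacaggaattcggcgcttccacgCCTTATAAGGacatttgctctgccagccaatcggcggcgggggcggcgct
Myl9: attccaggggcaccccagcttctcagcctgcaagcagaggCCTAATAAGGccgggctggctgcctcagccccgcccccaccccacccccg
Srf: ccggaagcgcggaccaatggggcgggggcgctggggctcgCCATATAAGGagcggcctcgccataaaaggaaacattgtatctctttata
Fhl2: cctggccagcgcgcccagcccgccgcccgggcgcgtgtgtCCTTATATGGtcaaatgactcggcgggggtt
Of the genes shown, Cnn2, an actin-binding calponin, rose from 1669, 1854 and 1763 to 3489, 5269 and 4925 normalized counts (2.59-fold), and Myl9, a myosin light chain, from 195, 215 and 240 to 793, 1002 and 759 (3.93-fold).

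In the list of adhesion, epithelial and mesenchymal genes 12 of 24 were higher and 3 lower. Cdh1, which encodes E-cadherin, rose from 8396, 7780 and 7326 to 12992, 15370 and 15461 normalized counts (1.86-fold, adjusted p = 7.41e-09), and the claudin genes Cldn7 and Cldn6 rose 3.89- and 3.46-fold. Vim, the mesenchymal intermediate filament gene, fell from 5529, 6647 and 7516 to 2588, 3089 and 3235 (2.21-fold, adjusted p = 7e-06), with Zeb1 (−0.69) and Zeb2 (−1.02), repressors of E-cadherin. Snai2, a further repressor of this kind, rose 4.55-fold from a low level, from 10.2, 13.4 and 16.1 to 64.8, 54.9 and 60.8 normalized counts. Cdh2, N-cadherin, did not pass (−0.16, adjusted p = 0.586).

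Hox genes, which Polycomb keeps silent in mESCs, rose from low levels. Of the 38 listed Hox genes 22 passed the filter on low counts, 13 of those were higher and none was lower. A Hox gene could pass the filter through its Pds5a-/- libraries alone. The share called among tested members and their median log2 fold change are therefore no support for a general rise. Summed over the list, normalized counts were 244 to 298 in WT siPds5b and 756 to 1078 in Pds5a-/- siPds5b mESCs. Hoxd13 went from 57.1, 23.4 and 31.0 to 164, 165 and 124 normalized counts (4.02-fold, adjusted p = 4.84e-06). Hoxb4 was at 6.11, 2.23 and 1.15 against 26.6, 41.5 and 43.9, and Hoxa3 at 0, 1.12 and 0 against 15.98, 13.5 and 11.0. These were genes of several clusters and of both ends of the clusters. Of the Polycomb genes themselves 12 of 32 were higher and 6 lower, among them Pcgf5 (1.52) and Phf19 (0.96) upward and Eed (−0.51) and Pcgf2 (−0.49) downward, while the methyltransferase gene Ezh2 stood at −0.02 (adjusted p = 0.819).

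Germline and imprinted genes were more often higher than lower. In the germline list 13 of 25 tested genes were higher (52%, against 16.3% of all tested genes) and 3 lower (12%, against 14.3%). The X-linked homeobox genes Rhox6, Rhox9 and Rhox5, which form a cluster of similar genes, rose 9.66-, 7.15- and 5.87-fold, Rhox5 from 394, 223 and 158 to 2012, 1390 and 1182 normalized counts. Sycp2, a synaptonemal complex gene, rose 4.35-fold, and Stk31, a testis kinase gene, fell by 1.24. Of 31 imprinted genes 11 were higher (35.5%) and 3 lower (9.68%). Igf2, the insulin-like growth factor, went from 880, 837 and 766 to 2329, 4960 and 5675 normalized counts (5.21-fold, adjusted p = 0.000223), and the cell cycle inhibitor gene Cdkn1c from 824, 429 and 530 to 2401, 2729 and 2685 (4.37-fold, adjusted p = 3.61e-09). Nnat rose by 2.43 on the log2 scale and Dlk1 3.29-fold. The lower imprinted genes were Mest, Magel2 (6.95-fold) and Ddc (2.83-fold). H19, the noncoding neighbour of Igf2, did not pass (−0.67, adjusted p = 0.0287).

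Genes of the Y chromosome were not uniformly affected. Of 6 tested single-copy genes 3 were higher and 1 lower. Uba1y rose from 13.2, 8.93 and 5.74 to 385, 305 and 311 normalized counts (35.0-fold, adjusted p = 1.96e-12) and Eif2s3y from 95.8, 112 and 99.9 to 810, 741 and 663 (7.21-fold), whereas the histone demethylase gene Kdm5d fell from 20.4, 55.8 and 36.7 to 4.44, 4.15 and 4.98 (8.09-fold). Ddx3y was at 112, 151 and 188 against 177, 134 and 178 (0.12, adjusted p = 0.592). A Y chromosome was thus transcribed in all 6 libraries.

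Signalling genes were scattered in both directions. Fgf8 showed the largest change of the FGF and ERK list, in which 4 of 24 genes were higher and 7 lower. This embryonic growth factor gene (chr19:45736798-45742915) fell from 158, 739 and 791 to 8.88, 16.6 and 15.95 normalized counts (40.8-fold, adjusted p = 0.000241), and WT siPds5b replicate 1 was the low WT library. Its relative Fgf17 fell from 523, 557 and 637 to 101, 128 and 124 (4.88-fold, adjusted p = 1.87e-11). The receptor gene Fgfr2 rose from 94.8, 46.9 and 86.1 to 440, 441 and 443 (5.78-fold, adjusted p = 7.57e-10), and the ERK phosphatase gene Dusp4 rose 2.31-fold. Without Pds5a-/- siPds5b replicate 2 or 3 the number of lower FGF genes went from 7 to 4.

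In the Wnt list 10 of 34 genes were higher and 4 lower, and 6 were higher without Pds5a-/- siPds5b replicate 3. The ligand gene Wnt7b rose from 68.3, 50.2 and 32.1 to 271, 440 and 516 normalized counts (8.03-fold) and Wnt9a 3.26-fold. Notum, which encodes a secreted inhibitor, fell from 547, 416 and 404 to 120, 91.2 and 95.7 (4.44-fold, adjusted p = 1e-10). Sfrp1, also a secreted inhibitor gene, was 2.81-fold lower and the receptor gene Fzd5 2.49-fold lower. Of 28 Nodal and BMP genes 6 were higher and 2 lower, and 3 were higher without WT siPds5b replicate 1 or 2 or Pds5a-/- siPds5b replicate 2 or 3. Those included the BMP target Id1 (1.32), the SMAD corepressor gene Skil (1.03), and, downward, Lefty2 (−0.82). In the hedgehog pathway the target gene Gli1 went from 451, 403 and 364 to 82.6, 65.3 and 106 (4.80-fold, adjusted p = 2.38e-10).

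Axon guidance and neural genes likewise split. Of 44 axon guidance genes 12 were higher and 5 lower, with 6 higher without WT siPds5b replicate 1, 7 without Pds5a-/- siPds5b replicate 2 and 5 without replicate 3. The ligand gene Ntn1 fell from 1161, 1457 and 1442 to 139, 151 and 209 normalized counts (8.13-fold, adjusted p = 2.5e-11). The ephrin receptor gene Ephb1 went from 11.2, 5.58 and 1.15 to 43.5, 58.1 and 62.8 (adjusted p = 7.62e-06). Of 22 neuroectoderm genes 5 were higher and 6 lower, with Sox1, a pan-neural factor, falling from 369, 278 and 307 to 132, 112 and 78.7 (2.94-fold). Primitive streak and mesoderm genes gave none higher and 3 lower of 18 (Fgf8, Eomes and Lefty2), and endoderm genes 4 higher and 1 lower of 17. The clustered protocadherins are stochastically expressed cell surface genes under cohesin and CTCF control in neurons. Of 58 listed 24 passed the filter on low counts, and of these none was higher and 4 were lower (2 without WT siPds5b replicate 3). The others had low counts and were not tested. They included every Pcdha gene listed. Apart from Pcdha4, which had no count, each Pcdha gene had a higher mean in Pds5a-/- siPds5b than in WT siPds5b mESCs. Untested Pcdhb genes went both ways. Pcdha7 was at 1.02, 0 and 0 in WT siPds5b against 6.22, 9.33 and 10.96 in Pds5a-/- siPds5b mESCs. Pcdhb19 was at 10.19, 5.58 and 16.07 against 1.78, 2.07 and 1. Interferon-stimulated genes gave 4 higher and 5 lower of 22, with Oasl2 up 5.99-fold, from 93.7, 221 and 162 to 893, 941 and 1010, and Herc6 down 3.45-fold. That list gave 2 higher without WT siPds5b replicate 1, and 3 lower without WT siPds5b replicate 3 or Pds5a-/- siPds5b replicate 2.

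Growth and biosynthesis genes made small, one-sided shifts. In the amino acid stress and unfolded protein list 11 of 30 genes were lower and none was higher, with a median of −0.37. Asns, asparagine synthetase, fell from 12809, 14422 and 14077 to 5917, 6891 and 6953 normalized counts (2.09-fold, −1.06 ± 0.07, adjusted p = 5.92e-11). Atf5, a stress-induced factor gene, fell 2.16-fold, the amino acid transporter gene Slc7a5 1.90-fold, and the serine and proline enzymes Shmt2 and Pycr1 1.67- and 1.65-fold. Atf4, the factor that drives many of these genes, was at 5846, 4275 and 6070 against 5459, 3957 and 3040 and did not pass (adjusted p = 0.179).

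ATF4 dimers bind amino acid response elements, and the core TGATGNAA was searched for on both strands in the RefSeq promoters. It was present in 9 of 27 list members with a promoter (33.3%), against 4.51% of all genes. Among called members it was present in 4 of 10, and among those not called in 5 of 17. For 3 of the called genes the stretch is shown 5′ to 3′ on the strand of the gene with the core in capitals, on the opposite strand in Nupr1. These stretches lie at chr6:7693210-7693272 (minus strand) for Asns, chr7:126625533-126625620 (minus) for Nupr1 and chr11:120643804-120643891 (minus) for Pycr1.
Asns: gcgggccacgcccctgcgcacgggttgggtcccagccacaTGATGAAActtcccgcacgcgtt
Nupr1: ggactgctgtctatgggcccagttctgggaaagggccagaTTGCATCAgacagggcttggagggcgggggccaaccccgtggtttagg
Pycr1: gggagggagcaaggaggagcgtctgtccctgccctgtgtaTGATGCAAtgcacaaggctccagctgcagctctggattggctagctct
Nupr1, a stress-induced chromatin protein gene, went from 830, 636 and 685 to 511, 390 and 404 normalized counts (adjusted p = 0.007), a call that was lost in 4 of the 6 fits without a library. As with the CArG box, the list was chosen in part for known targets.

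DNA replication genes fell slightly but broadly, 22 of 34 lower and none higher, with a median of −0.27, and 14 were lower without Pds5a-/- siPds5b replicate 2. Rrm2, the small subunit of ribonucleotide reductase, fell from 6666, 6860 and 7055 to 3456, 3076 and 2877 normalized counts (2.19-fold, adjusted p = 1.59e-11). The clamp gene Pcna fell by 0.68, the helicase gene Mcm5 by 0.65 and Pola1 by 0.54. Several of these genes lie on chromosome 8, and without that chromosome 17 of 28 were lower. Mitosis genes did not share this shift, with 4 higher and 3 lower of 32.

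Cytosolic ribosomal protein genes gave 23 lower (30.7%, against 14.3% of all tested genes) and none higher of 75, with a median of −0.26. Rpl22 fell from 9869, 10298 and 9611 to 5275, 5097 and 4895 normalized counts (1.95-fold, adjusted p = 3.14e-07) and Rps20 by 0.63 (adjusted p = 0.000103). Processed pseudogenes share sequence with these genes, so their counts are uncertain, and Rpl26 is listed at 0 in all 6 libraries. This count depended on single libraries more than others did, with 12 lower without WT siPds5b replicate 1, 14 without Pds5a-/- siPds5b replicate 2 and 8 without replicate 3. Oxidative phosphorylation genes gave 12 lower (25%, against 14.3% of all tested genes) and none higher of 48. Without Pds5a-/- siPds5b replicate 2 or 3 this list gave 6 lower, and all tested genes gave 1661 or 1632 in place of 2141. Without replicate 3 neither the ribosomal nor the oxidative phosphorylation list stood clearly above all genes in its share of lower calls. Atp5b, the catalytic subunit of ATP synthase, fell 1.96-fold, from 37890, 38269 and 35722 to 19604, 18771 and 18778 (adjusted p = 1.13e-11).

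Sterol and fatty acid synthesis genes went the other way, 13 higher (40.6%, against 16.3% of all tested genes) and 1 lower of 32. The number higher ranged from 9 without Pds5a-/- siPds5b replicate 3 to 15 without Pds5a-/- siPds5b replicate 1. Sqle, squalene epoxidase, rose from 1878, 2198 and 2098 to 2971, 3320 and 3610 normalized counts (1.604-fold, adjusted p = 6.57e-07). The desaturase gene Fads2 rose from 744, 888 and 708 to 1262, 1466 and 1801 (1.93-fold, adjusted p = 4.95e-07). Ebp, the sterol isomerase of the same pathway, fell 2.21-fold, from 672, 755 and 744 to 287, 334 and 363. Of 31 glycolysis and hypoxia genes 2 were higher and 1 was lower, and 6 were higher without WT siPds5b replicate 2. Of 20 p53 targets 2 were higher and 1 was lower.

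The same genotype contrast was available with the siGLO control, in 6 libraries that are on neither side of the siPds5b contrast but entered the same fit. There 2656 genes passed (17.8%), 1441 higher (9.63%) and 1215 lower (8.12%), and the count was 1763 without Pds5a-/- siGLO replicate 2. Of the 4586 genes called with siPds5b 1984 were also called with siGLO (43.3% of the first set and 74.7% of the second), 1974 of them in the same direction. Across all tested genes the 2 sets of log2 fold changes had a Pearson correlation of 0.747 and a Spearman correlation of 0.704. Genes are not independent replicates, and both contrasts compared the same clone with the same WT line. The median size of a log2 fold change was 0.303 with siPds5b and 0.221 with siGLO.

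The difference between the genotype effects was tested for each gene as an interaction. It passed for 222 genes (1.48%), 88 positive (0.588%), that is with a more positive genotype effect under siPds5b, and 134 negative (0.896%). The count was sensitive to single libraries, at 137 without WT siGLO replicate 2, 121 without WT siGLO replicate 3, 136 without WT siPds5b replicate 1, 143 without Pds5a-/- siGLO replicate 2 and 122 without Pds5a-/- siPds5b replicate 2. Of the 2602 genes called with siPds5b and not with siGLO, 114 passed this test, so for most of them a different effect was not shown.

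Naive pluripotency genes were prominent among the negative differences, 7 of 18. Esrrb had 10816, 11120 and 10154 normalized counts in WT siGLO and 6206, 5881 and 5824 in Pds5a-/- siGLO mESCs, so its genotype effect was −0.84 with siGLO against −2.10 with siPds5b (difference −1.26 ± 0.11, adjusted p = 2.75e-07). Prdm14 was at 625, 607 and 544 against 290, 312 and 336 with siGLO (difference −1.91 ± 0.24, adjusted p = 4.47e-05). For Nr0b1 the genotypes overlapped with siGLO, at 2332, 1878 and 2008 against 1998, 1689 and 1414, and were apart with siPds5b, at 3212, 2130 and 2253 against 626, 629 and 531 (difference −1.80 ± 0.21, adjusted p = 5.85e-05). Sox2 behaved alike, at 8262, 8384 and 7562 against 8656, 7375 and 7400 with siGLO (difference −0.75, adjusted p = 8.03e-05). Klf4 (−1.21), Zfp42 (−1.14), Nr5a2 (−1.11) and Tcl1 (−0.94) also passed.

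In the trophoblast list the median was 1.74 with siGLO and 1.67 with siPds5b, and 1 of the 14 members, Tfap2c (−0.93), passed the test of the difference. Krt8 was at 6091, 18271 and 17867 normalized counts in Pds5a-/- siGLO mESCs, with replicate 1 again the low library, and its difference was −0.06 ± 0.63. The Hox genes that passed the filter on low counts had a median of 0.75 with siGLO, 2 of 22 called. A Hox gene could pass that filter through its Pds5a-/- siPds5b libraries alone. The siGLO median and count therefore cannot be set against those with siPds5b as a measure of a difference. None of these Hox genes passed the test of the difference, the nearest being Hoxd13 (1.79 ± 0.43, adjusted p = 0.0162).

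**Figure D3:**
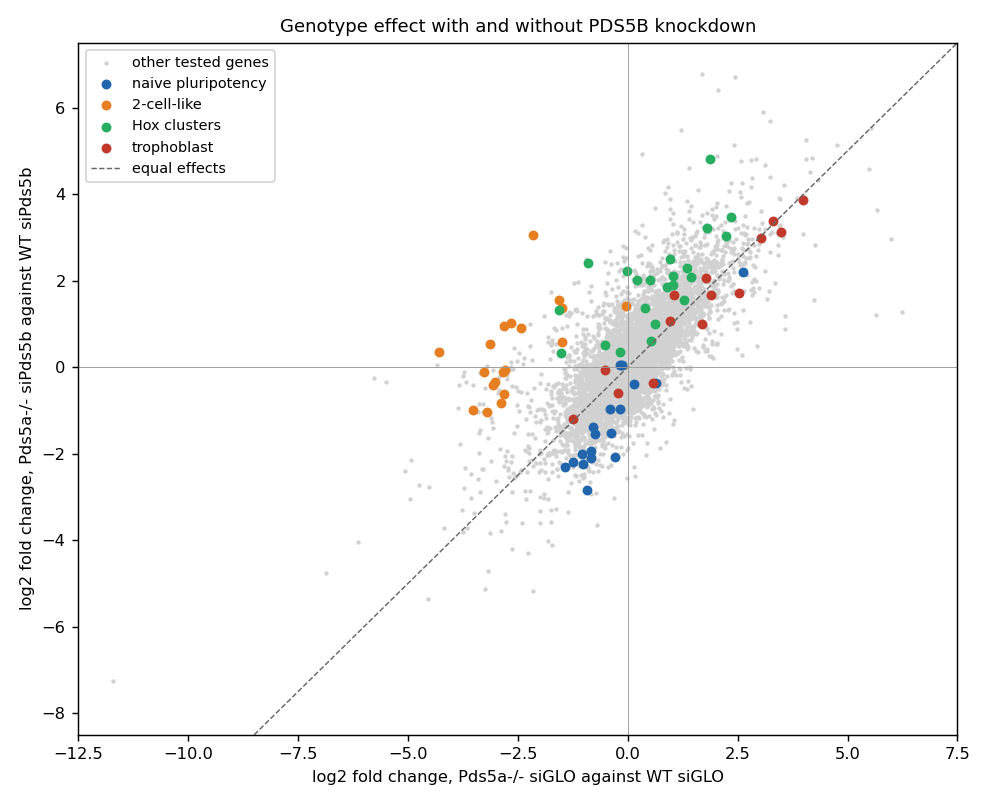
Log2 fold change of Pds5a-/- against WT with siGLO (x) and with siPds5b (y) for each tested gene, with the naive pluripotency, 2-cell-like, Hox and trophoblast lists coloured and the diagonal of equal effects dashed. Most naive genes lie below the diagonal, most trophoblast genes near it, and 2-cell-like genes far to the left of 0 on the siGLO axis but around 0 on the siPds5b axis.

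The 2-cell-like genes, which mark a rare mESC state resembling the 2-cell embryo, differed most between the contrasts. With siGLO none was higher and 16 of 19 were lower in Pds5a-/- mESCs, with a median of −2.82, whereas with siPds5b 4 were higher and none lower, with a median of 0.36. The test of the difference passed for 11 of the 19, all positive. Zscan4d, a telomere-associated factor gene, was at 530, 377 and 556 normalized counts in WT siGLO and 79.2, 73.9 and 52.1 in Pds5a-/- siGLO mESCs, but at 740, 366 and 518 in WT siPds5b and 631, 571 and 308 in Pds5a-/- siPds5b mESCs (difference 2.73 ± 0.45, adjusted p = 0.00223). The 3 Pds5a-/- siGLO libraries were low, and all the other 9 lay in a common range. Zscan4c and Zscan4e showed the same order (differences 2.67 and 2.72). Dux, the factor that switches the state on, was at 21.5, 13.5 and 24.0 against 2.03, 3.74 and 0 with siGLO and at 18.3, 23.4 and 16.1 against 24.9, 12.4 and 15.95 with siPds5b (difference 3.17 ± 0.77, adjusted p = 0.0201).

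Some 2-cell-like genes changed direction. Usp17lb, a deubiquitinase gene, was at 80.8, 57.5 and 89.3 against 29.5, 29.0 and 18.3 normalized counts with siGLO and at 134, 61.4 and 81.5 against 345, 293 and 180 with siPds5b, lower in the first contrast (adjusted p = 0.00234) and higher in the other (adjusted p = 0.000287). Usp17la and Usp17le did the same, although the siPds5b call of Usp17la was lost without WT siPds5b replicate 2 and that of Usp17le in 4 of the 6 fits without a library. In all, 10 genes were called in both contrasts with opposite signs; chosen after their values were seen, the other 7 were Ano3, Calcr, Ctsc, Ddit4l, Mt2, Smagp and Tie1. Zscan4, Usp17l and Tdpoz genes are families of near-identical copies, and how reads were shared between copies is not given in the sources used here, so the value of a single copy is uncertain. Without WT siPds5b replicate 2 the number of higher 2-cell-like genes was 2.

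**Figure D4:**
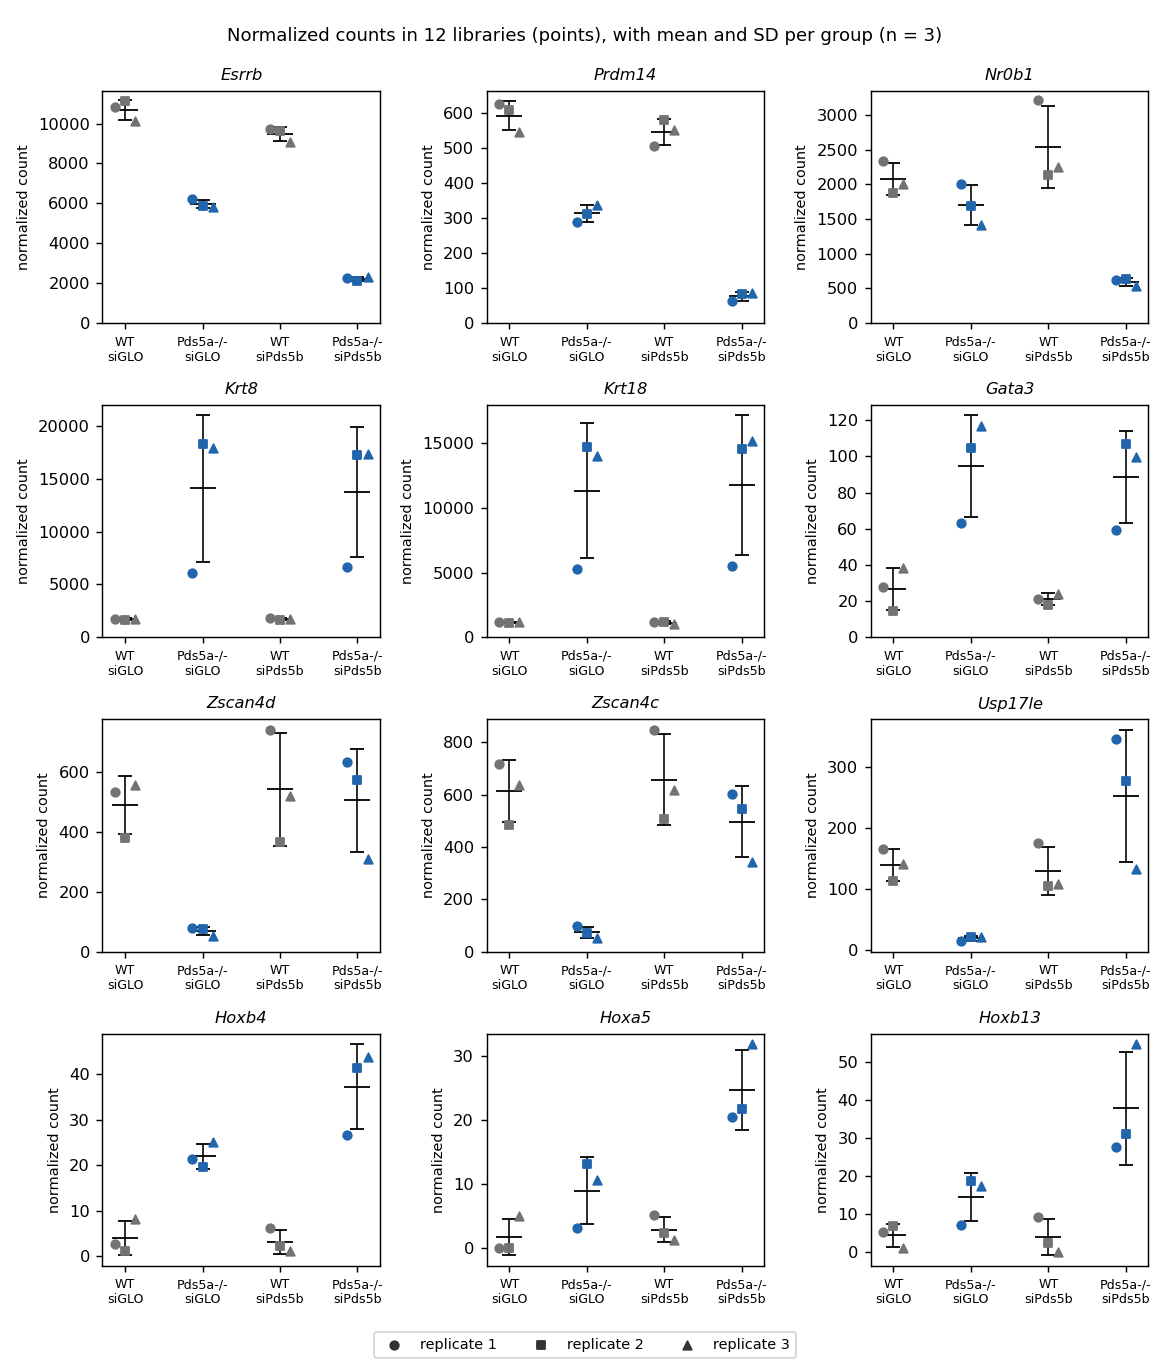
Normalized counts of 12 genes in the WT (grey) and Pds5a-/- (blue) libraries with siGLO and siPds5b, with a symbol for each replicate and lines for the mean and SD of 3 libraries. The rows show naive genes lowest in Pds5a-/- siPds5b, and keratin and Gata3 levels raised alike with both siRNAs. The 2-cell-like genes shown are low only in Pds5a-/- siGLO among these 4 groups. The Hox genes shown are highest in Pds5a-/- siPds5b, but they were picked from the largest Hox increases with siPds5b. Their order thus follows from that choice, and no Hox gene passed the test of the difference. All 12 genes were chosen with their values known, so the rows illustrate the patterns and do not test them.

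Genes on chromosome 8 were shifted as a block. Of 781 tested genes there 240 were lower (30.7%) and 66 higher, and their median log2 fold change was −0.207, a 1.15-fold lower level, against −0.061 to 0.062 for the other 18 autosomes, where 11.4% to 17.5% of genes were lower. With siGLO the median of chromosome 8 was −0.191. The chromosome held 5.05% to 5.22% of all counts in WT siPds5b and 4.45% to 4.49% in Pds5a-/- siPds5b mESCs, and 4.42% to 4.58% in the other Pds5a-/- libraries. The share was thus lower than in WT in every library of the clone whichever siRNA was used. It was 5.14% to 5.20% in WT siGLO and 6.31% to 6.38% in Pds5b-/- siGLO mESCs, so the other knockout line differed from WT in the opposite direction. Zfp42, Klf2, Sox1, Sfrp1, Mcm5, Slc7a5 and Ier2, described as lower above, lie on chromosome 8, as do Acta1, Cdh1 and Dusp4, which were higher. Without the chromosome 4280 genes were called with siPds5b, 2441 with siGLO and 215 in the difference, and 12 of the 16 remaining naive genes were lower.

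**Figure D5:**
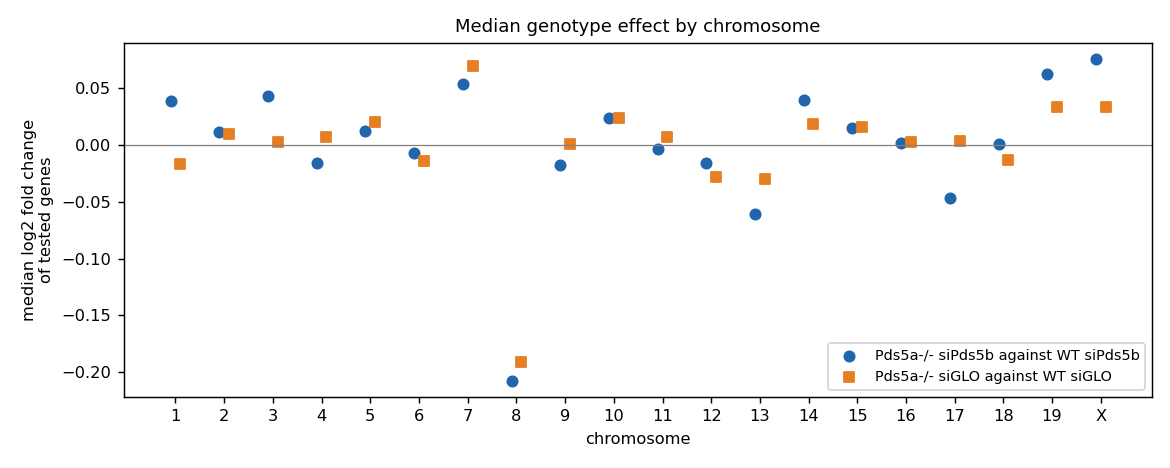
Median log2 fold change of the tested genes of each autosome and the X chromosome, Pds5a-/- against WT, with siPds5b (blue circles) and siGLO (orange squares). Chromosome 8 lies at −0.207 and −0.191, and the other autosomes lie between −0.061 and 0.069.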

How the data were processed

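Poly-A RNA from mESCs was sequenced as paired ends. The authors aligned reads with STAR to mm10 and deposited raw gene counts for each library; the counting tool, annotation and strand setting are not given in the sources used here. The 21 libraries were grouped by genotype and siRNA from the labels. Counts of 23412 genes were analysed with edgeR 4.0.16 in R 4.3.3 as follows: genes were filtered with filterByExpr (14963 kept), scaled by TMM and fitted with the robust quasi-likelihood test over all 7 conditions (14 residual degrees of freedom), with Benjamini-Hochberg adjustment and a threshold of 0.01 as in the study. Fold changes are given with standard errors, on the log2 scale where signed. The contrasts were Pds5a-/- against WT with siPds5b, the same with siGLO, and their difference. Replicates were not identical. Positions were matched for 99.7% of tested genes.

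The members and gene lists were chosen with earlier results of these data known. The genes named are Pds5a and Pds5b, the 12 largest changes per direction without overlap at a mean log2 CPM of at least 1, up to 5 called and 3 uncalled members of each list, the 6 largest differences per direction, and genes near 0 in 1 group; a few further list members are named for their known role. The procedure was run on simulated data with far fewer changed genes and no outlying libraries, so this does not check the numbers of genes called here. DESeq2 1.42.0, other scalings, filters and thresholds, a replicate block, leaving out each library and, added after the data were seen, leaving out chromosome 8 were tried as alternatives. Some genes that these rules name are not reported here.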

Additional observations from a re-analysis of the deposited data

Results flagged for a closer look

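Named genes whose genotype effect differed between siPds5b and siGLO by the interaction test (edgeR adjusted p under 0.01) are given here with the difference on the log2 scale, siPds5b minus siGLO. The largest positive differences were those of the 2-cell-like genes Usp17le (3.78), Usp17lc (3.66), Usp17lb (3.14), Usp17la (2.86), Zscan4d (2.73), Zscan4e (2.72) and Zscan4c (2.67). Each belongs to a family of near-identical copies, so these values are not independent of each other. The interferon-stimulated gene Oasl2 (2.28), the matricellular genes Thbs2 (1.75) and Ctgf (1.04) and the p53 target Pmaip1 (0.69) were also positive. For Oasl2 the Pds5a-/- siGLO libraries (221, 225 and 222 normalized counts) lay among the WT siGLO values of 92.8, 238 and 216.

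Negative differences among pluripotency and early embryo genes were those of Prdm14 (−1.91), Nr0b1 (−1.80), Esrrb (−1.26), Klf4 (−1.21), Tcl1 (−0.94), Tfap2c (−0.93) and Sox2 (−0.75). For Tfap2c the genotype effect was positive with siGLO (0.57; adjusted p = 0.00212) and did not pass with siPds5b (−0.36; adjusted p = 0.0325). Among signalling and patterning genes they were those of Inhbb (−2.38), Gli1 (−1.89), Fgf17 (−1.70), Notum (−1.46), Olig2 (−1.38), Ntn1 (−1.12) and Epha4 (−1.08), and among other genes Sgk2 (−2.71), Accsl (−1.83), Mras (−1.32), Asns (−0.62) and Rrm2 (−0.46). Sgk2, a kinase gene, was at 68.7, 43.9 and 38.9 against 39.6, 42.1 and 40.5 normalized counts with siGLO and at 90.7, 53.6 and 62.0 against 9.77, 9.33 and 5.98 with siPds5b. Groups of 3 libraries are too small for a test of single outlying libraries.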

How the results depend on the processing

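The siPds5b count of 4586 stayed within 1.5 times under all alternatives except the fold limit: 5004 with DESeq2, 4586 with RLE scaling, 4539 with library size only, 4424 without a filter, 4004 with at least 10 counts in every library, 3928 from the compared conditions alone, 6582 at adjusted p under 0.05, 3581 to 4365 without 1 library and 1655 where the log2 fold change also had to reach 1. The siGLO count was 4215 at 0.05, 958 with the fold limit and 1763 to 2584 without 1 library. The count for the difference was 421 with DESeq2, 134 from the compared conditions alone, 578 at 0.05, 118 with the fold limit and 121 to 232 without 1 library. Causes of these shifts were not tested beyond the fewer genes or libraries in the fits. Of 226 named genes called with siPds5b, 185 kept their call without each library, 41 lost it at least once and none changed sign.

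A replicate block gave 5221, 3175 and 389 calls for siPds5b, siGLO and the difference. Same-numbered siPds5b libraries deviated together with correlations of 0.198, 0.009 and −0.134 (siGLO 0.323, 0.239 and 0.061), and not every library correlated best with its own number, so the numbers were not taken to pair the samples.

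Values that changed sign had not passed the test. Nipbl went to 0.0237 with library size only and 0.0018 with at least 10 counts (−0.0750 to 0.0485 without 1 library), Wapal to 0.0045 with library size only, Esco1 to 0.0277 and 0.0055 (−0.0586 to 0.0600) and Espl1 to 0.0328 and 0.0101 (−0.0612 to 0.0215). Without 1 library Zscan4d ranged from −0.3369 to 0.1901, Zscan4e from −0.2615 to 0.1776 and Sox17 from −0.0568 to 0.7805. The median of all tested genes was −0.0024, and 0.0359 with library size only. Hox, 2-cell-like and switched genes rest on low counts, which limits their fold changes most.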
